A study of Mus musculus with 2 samples.

Results

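Transcripts of 46 genes of the tumour necrosis factor (TNF) system were compared between activated and naive mouse CD8+ T cells: 14 ligands, 21 receptors, and 11 adaptors and regulators. A probe set, the group of short probes that reports 1 transcript on these arrays, was taken when the platform's annotation names 1 gene only and that gene is on the list. This gave 72 probe sets for 42 genes, out of 34945 probe sets for 18193 genes with 1 symbol each. For Tnfsf12, Tnfrsf26, Traf3 and Ripk1 no expression value of the gene alone was analysed here.

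The activated cells were proliferating CD8+ T cells taken 72 h after activation. The naive cells were purified CD8+ T cells, and both came from pmel-1 mice, whose T cells carry 1 transgenic receptor specific for a melanocyte antigen. Both groups therefore share that transgene, and no organ, mode of activation, age or sex is stated in the labels. RNA of 4 independent experiments was pooled for each group and hybridised to 1 Affymetrix whole-genome array, so that each group has 1 value per probe set, no replicate error and no test. The study's title concerns positron emission tomography of immune activation with a deoxycytidine analogue; the TNF genes are part of the same whole-genome measurement.

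Ligands of the TNF family are mostly membrane-bound trimers that cluster their receptors on a neighbouring cell. Receptors with a death domain recruit Tradd or Fadd and can start caspase activation, among other outputs. Most of the other receptors bind TRAF adaptors and activate NF-kappaB, a pathway that supports survival and cytokine production. In CD8+ T cells the family is known above all for co-stimulation through 4-1BB, OX40, GITR and CD27, and for killing and contraction through Fas ligand and Fas.

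Values are the authors' intensities on a linear scale. Values under 100 were treated as too close to background to compare, and were raised to 100 before a ratio was formed, so that a fold with 1 array under 100 is a lower bound. A gene was taken as measured if 100 was reached on either array, and its brightest probe set stands for it. It is called higher or lower below when it passed a size rule, a difference between the arrays of more than 100 and of 1.4-fold or more. Of the 42 genes, 31 were measured and 11 lay under 100 on both arrays. Of the 31, 8 were higher and 8 lower in activated cells (25.8% each), against 23.7% higher and 20.6% lower of all 9842 measured genes. The shares of the list lay near those of all genes, so the differences described below are those of single members and not of the list. The median log2 ratio of activated over naive was -0.01 for the 31 members and 0.01 for all measured genes. Of the 31, 3 reached 100 on the activated array only and 3 on the naive array only. Among the 25 members at 100 or more on both arrays, 5 were higher (20.0%) and 8 lower (32.0%), against 23.1% and 21.0% of the 8395 such genes.

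**Figure D1:**
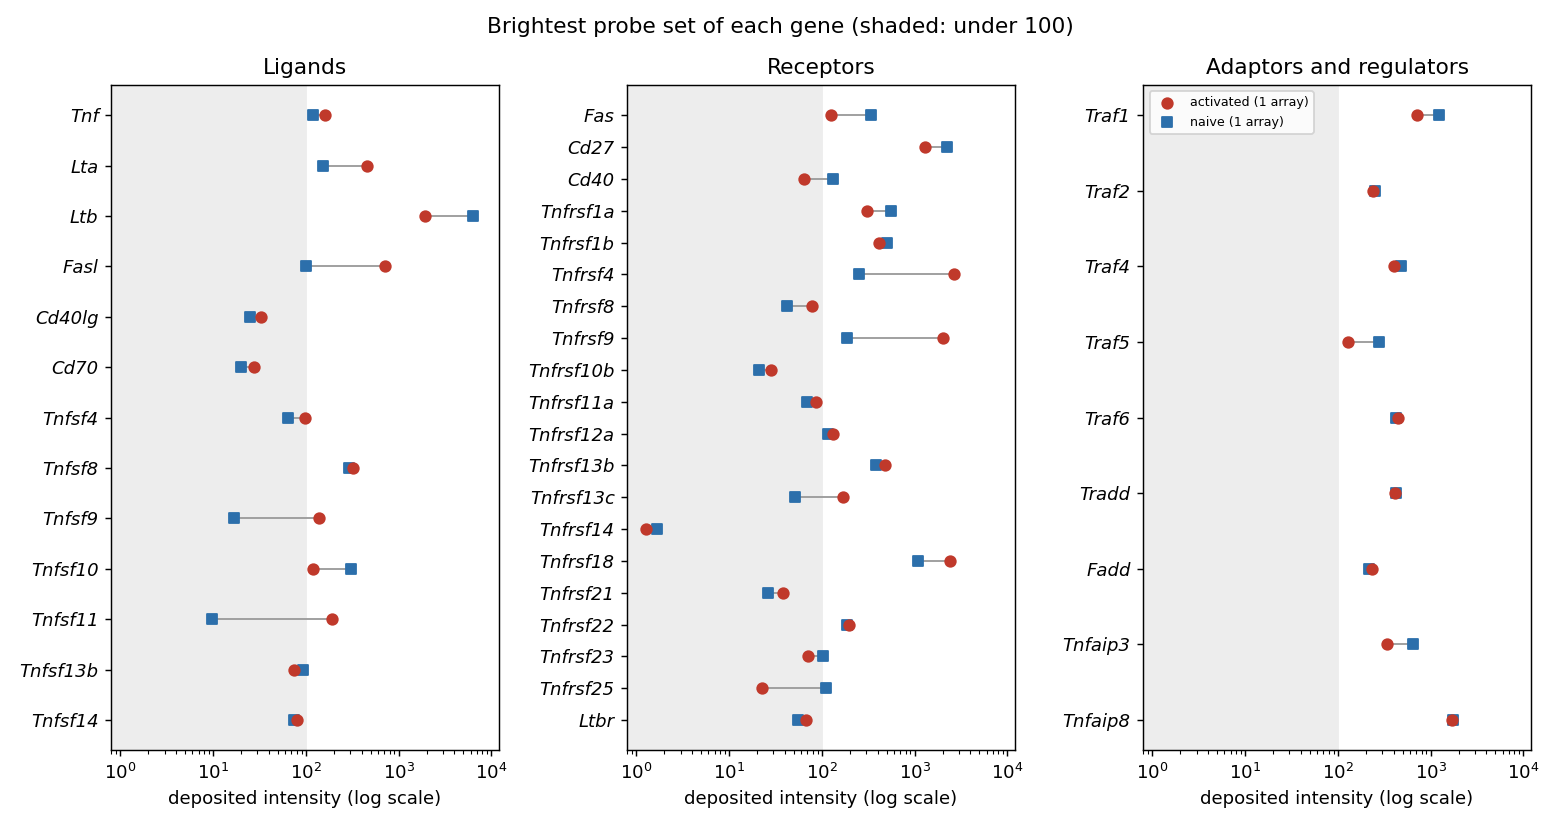
Deposited intensity (log axis) of the brightest probe set of each of 42 genes on the activated array (red circles) and the naive array (blue squares), 1 array each, with values under 100 shaded. Tnfrsf9 and Tnfrsf4 lie at 2040.0 and 2669 on the activated array and at 185 and 252 on the naive array, while Ltb lies at 1929 on the activated array and 6337 on the naive array.

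The log2 ratios of probe sets of 1 gene had a standard deviation of 0.39 around their mean, over 3404 genes with more than 1 probe set at 100 or more on both arrays. This spread is between probe sets on the same arrays and holds no variation between pools. The 9 bacterial and phage spike-in controls above 100 had log2 ratios from -0.42 to 0.20. CD8 T cell transcripts were at 100 or more on both arrays for 8 of 8 markers; Cd8a was at 4860.0 in activated and 6020.4 in naive cells and Cd8b1 at 3554 and 7725, and the 8 markers summed to 28964 and 39743. Cd4, which these cells should lack, lay at 50.5 and 45.1. Of the B cell markers, 1 of 11 reached 100 on the activated and 5 of 11 on the naive array, with summed intensities of 725 and 1447. Of the myeloid or dendritic markers 1 of 11 and 3 of 11 did so (sums 751 and 1283), and of the NK cell markers 1 of 3 and 2 of 3 (sums 273.0 and 1022). The highest of these were Csf1r, at 345 in activated and 642 in naive cells, and Eomes, at 215 and 725. Klra8 was at 29.9 and 242, and Ncr1, the remaining NK cell marker, lay under 100 on both arrays (27.8 and 54.7). The sums were 376 in activated and 381 in naive cells for neutrophil, 202 and 226 for CD4 or regulatory T cell, 178 and 309.5 for erythroid, 502 and 537 for platelet, and 417 and 689.7 for stromal or endothelial markers. Each of these sums, that of the CD8 T cell markers included, was lower in the activated pool, and their part in the differences below was not tested. Among the stromal or endothelial markers, Pecam1 was at 201 in activated and 511 in naive cells and Epcam at 127 and 105. The other 4 lay under 100 on both arrays. Eomes made up most of both NK cell sums, and Pecam1 most of the naive stromal or endothelial sum. In these bulk pools, fewer cells of a type, less RNA per cell and expression of a marker by the CD8+ T cells themselves cannot be told apart.

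The co-stimulatory receptors Tnfrsf9, Tnfrsf4 and Tnfrsf18 were higher in activated cells, and Tnfrsf9 and Tnfrsf4 had the highest ratios among the receptors. Tnfrsf9, the receptor 4-1BB, was at 2040.0 in activated cells, against 185 in naive cells (11.04-fold higher). Tnfrsf4, the receptor OX40, was at 2669 in activated cells, against 252 in naive cells (10.6-fold higher). Among all 9842 measured genes ordered from the highest ratio down, Tnfrsf9 stood at position 61 and Tnfrsf4 at position 69. A second probe set of Tnfrsf9 gave 1255 in activated and 56.7 in naive cells, a log2 ratio of at least 3.65, whereas the remaining one lay under 100 on both arrays (25.0 and 19.2). Tnfrsf18, the receptor GITR, was at 2378 in activated cells, against 1075 in naive cells (2.21-fold higher). GITR was thus already well above 100 in naive cells, and its difference was smaller than that of the other two. Tnfrsf4 and Tnfrsf18 rest on 1 probe set each and are direct neighbours among protein-coding genes in the RefSeq annotation of mouse assembly GRCm38.p6.

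The bases upstream of the 3 receptors are shown because T cell receptor and co-stimulatory signals are known to act on transcription through NF-kappaB, AP-1 and NFAT. Each line gives the 250 bases before an annotated RefSeq transcription start in GRCm38.p6, read 5′ to 3′ on the gene's strand; RefSeq lists 2 starts for Tnfrsf9, and both are given. Capitals mark matches on either strand to the NF-kappaB consensus, to the AP-1 site TGANTCA and to the NFAT core TGGAAA.
Tnfrsf9, chr4:150919905-150920154, plus strand: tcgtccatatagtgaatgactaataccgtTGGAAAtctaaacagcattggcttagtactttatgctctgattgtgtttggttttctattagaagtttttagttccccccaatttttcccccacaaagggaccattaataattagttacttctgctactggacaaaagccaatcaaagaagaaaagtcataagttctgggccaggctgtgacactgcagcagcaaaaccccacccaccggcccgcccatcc
Tnfrsf9, chr4:150927749-150927998, plus strand: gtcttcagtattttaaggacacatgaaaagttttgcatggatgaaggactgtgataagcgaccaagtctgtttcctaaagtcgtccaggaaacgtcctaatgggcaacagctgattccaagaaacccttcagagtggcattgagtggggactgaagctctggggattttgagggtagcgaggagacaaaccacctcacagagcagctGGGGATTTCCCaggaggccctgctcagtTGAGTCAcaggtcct
Tnfrsf4, chr4:156013445-156013694, plus strand: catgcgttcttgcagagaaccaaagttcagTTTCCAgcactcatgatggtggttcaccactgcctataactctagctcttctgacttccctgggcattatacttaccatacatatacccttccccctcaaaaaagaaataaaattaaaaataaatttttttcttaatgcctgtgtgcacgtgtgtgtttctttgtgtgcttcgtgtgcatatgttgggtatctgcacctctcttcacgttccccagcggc
Tnfrsf18, chr4:156026072-156026321, plus strand: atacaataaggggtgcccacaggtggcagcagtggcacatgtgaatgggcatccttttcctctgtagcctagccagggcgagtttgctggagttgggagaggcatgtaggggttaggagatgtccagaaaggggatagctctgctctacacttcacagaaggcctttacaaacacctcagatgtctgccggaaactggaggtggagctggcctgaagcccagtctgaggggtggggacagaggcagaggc

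The downstream start of Tnfrsf9 had a single stretch that matches the NF-kappaB consensus in 2 overlapping frames, between 43 and 33 bases before the start, and an AP-1 match from 15 to 9 bases before it. The upstream start of Tnfrsf9 and the start of Tnfrsf4 each held 1 NFAT match, 221 to 216 and 220 to 215 bases before the start. The Tnfrsf18 window held none of these motifs. Of 32851 RefSeq windows of this length, 3.9% held the NF-kappaB consensus, 6.75% the AP-1 site and 18.6% the NFAT core. Of the 40 windows used for 35 of the 46 genes, Traf3 and Ripk1 included, 5 (12.5%), 6 (15.0%) and 9 (22.5%) did. The list's windows leave out 1 chromosome, which was not left out of the windows of all genes. A match is a description of the letters only, and binding was not measured.

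Tnfrsf13c was the remaining TRAF-binding receptor called higher. Tnfrsf13c, the receptor for the B cell survival factor BAFF, was at 171 in activated cells, against 50.8 in naive cells (at least 1.71-fold higher). With the floor at 50 its log2 ratio was 1.75, above the 1.15 of Tnfrsf18. The B cell markers Cd79b (40.0 in activated and 293 in naive cells) and Cd22 (261 and 397) went the other way. Tnfrsf13b, the related receptor TACI, was at 484 in activated and 383 in naive cells, which is not past the size rule. Cd40, through which T cells stimulate antigen-presenting cells, was at 63.8 in activated and 133 in naive cells and did not pass either. The B cell markers Ms4a1 (43.9 and 136) and Bank1 (88.1 and 149.7) had their higher value on the same array as Cd40. All 5 measured B cell markers, Cd79b and Cd22 included, had their higher value on the naive array. The other 6 lay under 100 on both arrays. Whether B cells contributed to the values of Tnfrsf13c or Cd40 was not tested. Tnfrsf12a, the receptor Fn14, was at 131 in activated and 117 in naive cells by a probe set of a type that can match several transcripts, while its other probe set was at 1 and 2.22.

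Cd27 was the only one of the 9 measured TRAF-binding receptors called lower. Cd27, a co-stimulatory receptor of naive and memory T cells, was at 1306 in activated cells, against 2223 in naive cells (1.70-fold lower). Tnfrsf1b, the second TNF receptor, was at 413 in activated and 506 in naive cells, a difference of less than 100. In this group 4 of the 9 measured receptors were higher (44.4%), namely Tnfrsf9, Tnfrsf4, Tnfrsf18 and Tnfrsf13c, and 1 lower (11.1%). Of all measured genes 23.7% were higher and 20.6% lower, and 9 receptors are few for such a share. The median log2 ratio of the 9 was 0.34. Tnfrsf13c was measured on the activated array only and Cd40 on the naive array only, so that each could be called in 1 direction only. Tnfrsf8 (the receptor CD30), Tnfrsf11a (the receptor RANK), Tnfrsf14 (the receptor HVEM) and Ltbr (the lymphotoxin beta receptor) lay under 100 on both arrays. For Tnfrsf14 the only probe set was at 1.26 in activated and 1.68 in naive cells, next to the lowest deposited value of 1, and carries no usable level.

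Of the death domain receptors, Fas and Tnfrsf1a were lower in activated cells. Fas, which starts apoptosis when bound by Fas ligand, was at 126 in activated cells, against 338 in naive cells (2.67-fold lower). Tnfrsf1a, the death domain receptor for TNF, was at 303 in activated cells, against 549.7 in naive cells (1.81-fold lower). Both rest on 1 probe set. Tnfrsf25, the receptor DR3, was at 22.4 in activated and 111 in naive cells, a difference under 100 and not past the size rule. Tnfrsf10b, the mouse death receptor for TRAIL, and Tnfrsf21, the receptor DR6, lay under 100 on both arrays. Hence 2 of 3 measured death domain receptors were lower and none was higher, a set too small to compare with all genes. Tnfrsf22 and Tnfrsf23, mouse receptors that bind TRAIL without a death domain, did not pass the size rule. Tnfrsf22 was at 196 in activated and 187 in naive cells, and Tnfrsf23 at 71.7 and 103. A second measured probe set of Tnfrsf22 was at 98.1 in activated and 123 in naive cells.

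Counted together, 4 of 14 measured receptors were higher (28.6%) and 3 lower (21.4%), near the 23.7% and 20.6% of all measured genes, and the median log2 ratio was 0.01 for both. Over the 10 receptors at 100 or more on both arrays, 3 were higher and 3 lower (30.0% each), against 23.1% and 21.0% of all such genes.

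**Figure D2:**
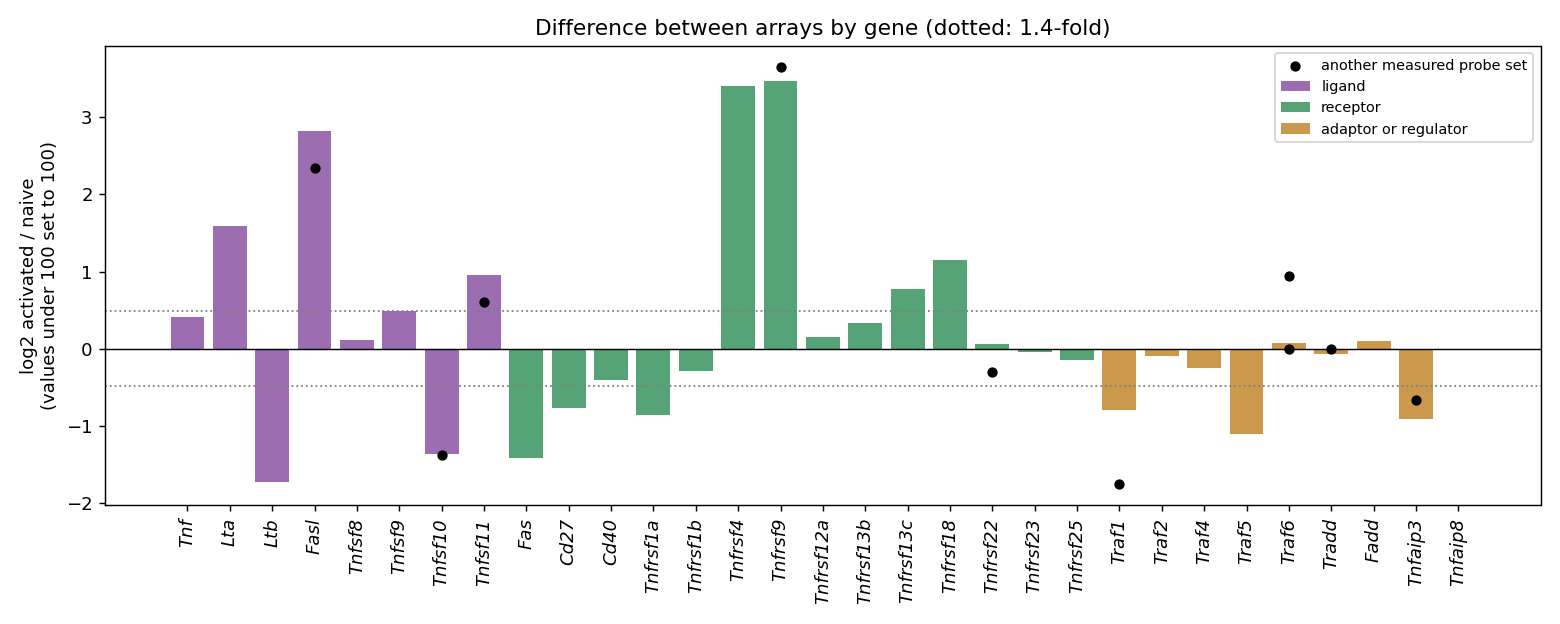
Log2 ratio of activated over naive for the 31 measured genes, as bars for the brightest probe set coloured by role and black points for other measured probe sets of the same gene; dotted lines mark 1.4-fold. The bars of Tnfrsf9, Tnfrsf4 and Fasl reach 3.47, 3.40 and 2.82, and no bar of an adaptor passes the upper dotted line.

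Among the ligands, Fasl had the highest ratio and Ltb the lowest. Fasl, the death ligand of cytotoxic T cells, was at 709.96 in activated cells, against 100.5 in naive cells (7.07-fold higher), and at 509 and 81.5 by its other probe set. It stood at position 135 of the 9842 measured genes from the highest ratio down. Lta, lymphotoxin alpha, was at 459.8 in activated cells, against 153 in naive cells (3.01-fold higher). Ltb, its membrane-anchoring partner in the lymphotoxin heterotrimer, was at 1929 in activated cells, against 6337 in naive cells (3.29-fold lower), which placed it 250 from the lowest ratio. Tnf, which encodes the inflammatory cytokine TNF, was at 160.4 in activated and 120.4 in naive cells, a ratio of 1.33 that did not pass the size rule. Ltb, Tnf and Lta follow each other directly in the RefSeq gene order with no protein-coding gene between them. The 3 neighbours were thus lower, not past the rule, and higher, each by the only probe set of its symbol.

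The windows upstream of both lymphotoxin genes are printed in the same way, as the pair that differed in opposite directions.
Lta, chr17:35205352-35205601, minus strand: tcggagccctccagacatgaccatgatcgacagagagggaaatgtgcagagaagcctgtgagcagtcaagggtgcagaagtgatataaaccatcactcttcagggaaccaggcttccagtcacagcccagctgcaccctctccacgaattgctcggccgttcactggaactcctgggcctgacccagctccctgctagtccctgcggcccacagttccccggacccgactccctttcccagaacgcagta
Ltb, chr17:35194257-35194506, plus strand: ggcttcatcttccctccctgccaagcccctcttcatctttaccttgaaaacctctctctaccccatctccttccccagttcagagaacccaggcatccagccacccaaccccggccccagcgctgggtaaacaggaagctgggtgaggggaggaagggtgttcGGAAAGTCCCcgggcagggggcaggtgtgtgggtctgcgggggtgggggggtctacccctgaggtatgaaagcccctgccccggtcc

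The Ltb window held 1 match to the NF-kappaB consensus, 87 to 78 bases before the start, and the Lta window held none of the 3 motifs.

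Tnfsf11 and Tnfsf9 were faint ligands called higher. Tnfsf11, the RANK ligand, was at 193 in activated cells, against 9.75 in naive cells (at least 1.94-fold higher), and at 152 and 39.5 by its other probe set. Tnfsf9, the ligand of 4-1BB, was at 140.3 in activated cells, against 16.8 in naive cells (at least 1.40-fold higher). It is the member nearest to the fold minimum from inside, as Tnf is from outside, and scaling the arrays to a common median ended its call. With the floor at 50 the log2 ratios were 1.95 for Tnfsf11 and 1.49 for Tnfsf9, against 1.59 for Lta, so the order of these 3 ligands depends on the floor. Both faint ligands were measured on the activated array only, so that they could be called in 1 direction only.

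Tnfsf10, which encodes the death ligand TRAIL, was at 118 in activated cells, against 303 in naive cells (2.56-fold lower). A second probe set gave 111 in activated and 289 in naive cells, and the remaining one lay under 100 on both arrays. Tnfsf8, the CD30 ligand, was at 319.8 in activated and 294 in naive cells and did not pass the size rule. Cd40lg, Cd70, Tnfsf4 (the OX40 ligand), Tnfsf13b (BAFF) and Tnfsf14 (LIGHT) lay under 100 on both arrays, at 27.5 to 97.1 in activated cells and 20.1 to 92.9 in naive cells. Of 8 measured ligands, 4 were higher and 2 lower, against 23.7% and 20.6% of all measured genes, and the median log2 ratio was 0.45 for the ligands and 0.01 for all genes. Over the 6 ligands at 100 or more on both arrays, 2 were higher, Fasl and Lta, and 2 lower, Ltb and Tnfsf10. Fasl only just reached 100 on the naive array (100.5), and its other probe set was at 81.5 there.

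Ligands and receptors were then set side by side as 18 known pairs. Both partners were measured in 6 pairs, and in 11 pairs at least 1 partner lay under 100 on both arrays. The pair of Tnfsf9 and its receptor Tnfrsf9 was the only one with both partners higher. Tnfsf9 was measured on the activated array only and lay nearest to the fold minimum, and median scaling ended its call. Fasl was higher while Fas was lower. Lta was higher while 1 of its receptors, Tnfrsf1a, was lower and the other, Tnfrsf1b, did not pass the size rule (413 in activated and 506 in naive cells). Tnf, paired with the same receptors, did not pass either. For OX40, Tnfrsf4 was higher while its ligand Tnfsf4 lay at 97.1 in activated and 64.0 in naive cells, just under the level compared. For CD27, the receptor was lower while its ligand Cd70 lay at 27.5 and 20.1. For lymphotoxin, Ltb was lower while Ltbr lay at 68.1 in activated and 55.2 in naive cells, and for TRAIL, Tnfsf10 was lower while Tnfrsf10b lay at 28.3 and 21.1. The measured TRAIL-binding receptors Tnfrsf22 and Tnfrsf23 were not among the pairs. RANK was likewise faint (86.9 in activated and 69.6 in naive cells) beside the higher Tnfsf11. Each value belongs to its own probe set, and levels of a ligand and its receptor are not compared with each other.

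**Figure D3:**
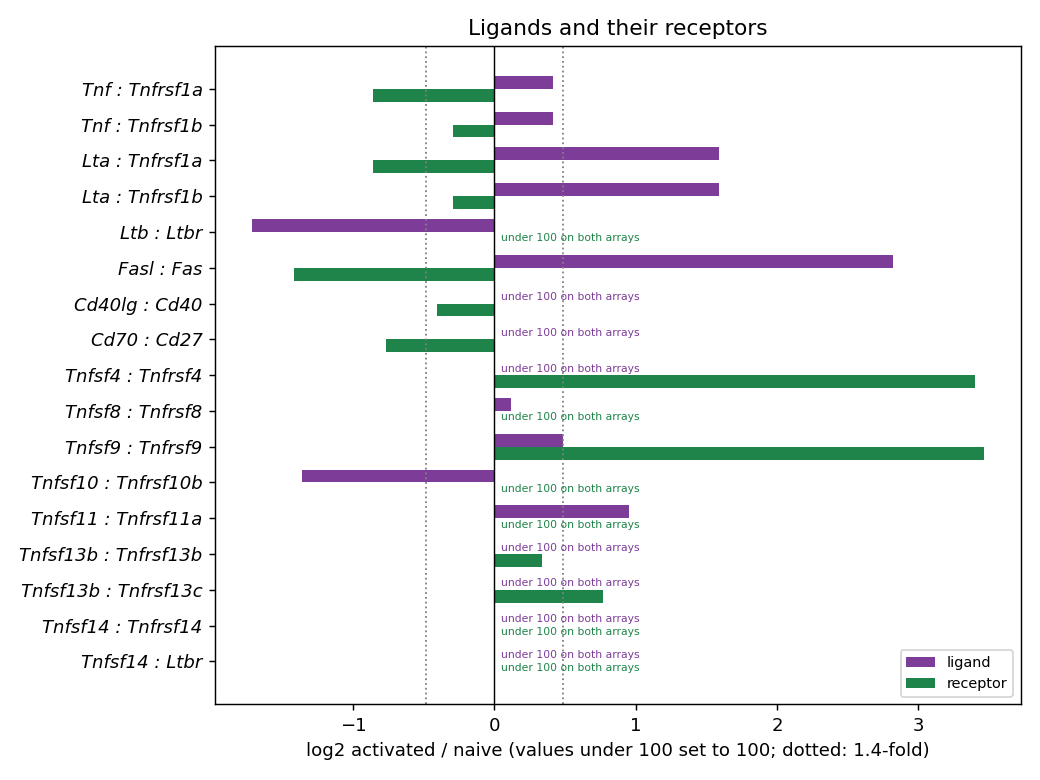
Log2 ratio of activated over naive for the ligand (purple, upper bar) and the receptor (green, lower bar) of 17 pairs, with dotted lines at 1.4-fold and a note where a gene lay under 100 on both arrays; the pair of Tnfsf12 is not drawn. The bars of Fasl and Fas point in opposite directions (2.82 and -1.42), while those of Tnfsf9 and Tnfrsf9 both point right (0.49 and 3.47). The bar of Tnfsf9 is a lower bound, since its naive value lay under 100.

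None of the 9 measured adaptors and regulators was higher by its brightest probe set, and 3 were lower (33.3%), against 23.7% higher and 20.6% lower of all measured genes; the median log2 ratio was -0.09. Traf1, an adaptor that pairs with Traf2 below 4-1BB and OX40, was at 715 in activated cells, against 1237 in naive cells (1.73-fold lower). A second probe set of Traf1 gave 194 in activated and 655 in naive cells, so that the size of the difference ranged from -1.75 to -0.79 on the log2 scale while both probe sets were lower. Traf5, an adaptor of OX40 and CD27, was at 130.1 in activated cells, against 278 in naive cells (2.14-fold lower). Traf2, the main adaptor of this receptor class, was at 237 in activated and 253 in naive cells, and Traf4 at 405 and 481. Neither passed the size rule. Traf6, which also serves Toll-like and interleukin-1 receptors, was at 449 in activated and 424 in naive cells by its brightest probe set. Its 3 measured probe sets disagreed, since another gave 192 in activated and 82.2 in naive cells and was called higher, with a log2 ratio of at least 0.94.

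Tradd, the adaptor of Tnfrsf1a, was at 408 in activated and 427 in naive cells. Fadd, which links Fas to Casp8, was at 235 in activated and 219 in naive cells. Neither death domain adaptor passed the size rule (log2 ratios of -0.06 and 0.10), whereas the receptors Tnfrsf1a and Fas were lower. No variation between pools is known against which to judge these differences. Tnfaip3, which encodes A20, an enzyme that edits ubiquitin chains and restrains NF-kappaB, was at 342 in activated cells, against 643 in naive cells (1.88-fold lower). Its second probe set gave 89.1 in activated and 158 in naive cells and did not pass the size rule. Tnfaip8, a TNF-induced gene, was at 1718 in activated and 1736 in naive cells.

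The window upstream of the distal RefSeq start of Tnfaip3 is shown because it held more matches than any other window of the list, while its transcript was lower.
Tnfaip3, chr10:19015411-19015660, minus strand: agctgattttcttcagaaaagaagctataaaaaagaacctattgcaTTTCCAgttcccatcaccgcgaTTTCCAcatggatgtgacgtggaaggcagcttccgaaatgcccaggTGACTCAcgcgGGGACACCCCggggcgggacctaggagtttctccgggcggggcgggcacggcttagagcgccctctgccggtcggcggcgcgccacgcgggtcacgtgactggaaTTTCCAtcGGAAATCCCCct

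It held 2 matches to the NF-kappaB consensus, 125 to 116 and 12 to 3 bases before the start. It also held 1 match to AP-1 and 3 to the NFAT core. The other RefSeq start of Tnfaip3 held none.

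By probe set instead of by gene, 12 of 41 measured member probe sets were higher (29.3%) and 10 lower (24.4%), against 23.2% and 19.2% of all 16934 measured probe sets with 1 symbol. By role, 6 of 11 ligand, 5 of 16 receptor and 1 of 14 adaptor probe sets were higher, and 3, 3 and 4 were lower. Of the members, 9 had more than 1 measured probe set. Fasl, Tnfsf11 and Tnfrsf9 were higher by both of their measured probe sets, and Tnfsf10 and Traf1 lower by both.

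Other genes of the pathway were described from 4 lists of NF-kappaB genes, ubiquitin enzymes, death genes and further family members. Of 16 measured NF-kappaB subunits, inhibitors and kinases 7 were lower (43.8%) and 2 higher (12.5%), and the median log2 ratio was -0.57. Of all measured genes 20.6% were lower and 23.7% higher. Ikbkb, the kinase that frees NF-kappaB, was at 765 in activated cells, against 1873 in naive cells (2.45-fold lower). Nfkbia, the inhibitor that NF-kappaB itself induces, was at 2205 in activated cells, against 4450.1 in naive cells (2.02-fold lower), and all 5 of its measured probe sets were lower. Nfkbie, a second inhibitor, was 2.15-fold lower and Tab1, a partner of the kinase Map3k7, 2.02-fold. Going the other way, the subunit gene Rel was at 246 in activated cells, against 75.1 in naive cells (at least 2.46-fold higher), and Map3k7 (the kinase TAK1) was 2.43-fold higher, although the log2 ratios of its 4 measured probe sets lay between -0.45 and 1.33.

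Of 14 measured ubiquitin enzymes and brakes, 6 were lower (42.9%) and 3 higher (21.4%), against 20.6% and 23.7% of all measured genes. The median was -0.47. Birc2, a ubiquitin ligase bound to Traf2, was at 487 in activated cells, against 1049 in naive cells (2.16-fold lower). Cyld, which removes ubiquitin chains, was 1.83-fold lower, Tnip1, a partner of A20, 1.77-fold, and Birc3, the relative of Birc2, 1.71-fold. Ube2n, which builds ubiquitin chains with Traf6, was at 2130 in activated cells, against 1083 in naive cells (1.97-fold higher). Tnip2 was at least 1.70-fold higher and Otulin, which removes linear chains, 1.47-fold.

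In the death arm 3 of 8 measured genes were lower (37.5%) and 1 higher (12.5%), with a median of -0.19. Cflar, which blocks Casp8 at the receptor, was at 352 in activated cells, against 848 in naive cells (2.41-fold lower), although the log2 ratios of its 5 measured probe sets lay between -1.27 and -0.04 and only 3 of them passed the size rule. Casp8, the starting caspase of this route, was 1.45-fold lower and Casp6 1.43-fold. Mlkl, which carries out necroptosis, was at 192 in activated cells, against 13.4 in naive cells (at least 1.92-fold higher). Of 11 measured further family and TRAF-associated genes 4 were lower (36.4%) and 2 higher (18.2%), with a median of -0.18. Tnfaip8l2, a relative of Tnfaip8 known as a brake on immune cells, was at 338 in activated cells, against 913 in naive cells (2.70-fold lower). Traf3ip3 was 2.50-fold, Traf3ip2 1.78-fold and Relt 1.65-fold lower, while Traip, a ubiquitin ligase of DNA replication, was at least 2.75-fold higher and Tnfaip1 1.67-fold higher. Against the 20.6% of all measured genes that were lower, the 4 lists had shares of 36.4% to 43.8%. Against the 23.7% that were higher, they had shares of 12.5% to 21.4%. The lists hold 8 to 16 measured genes each, were chosen with earlier results of these data known, and have no test.

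**Figure D4:**
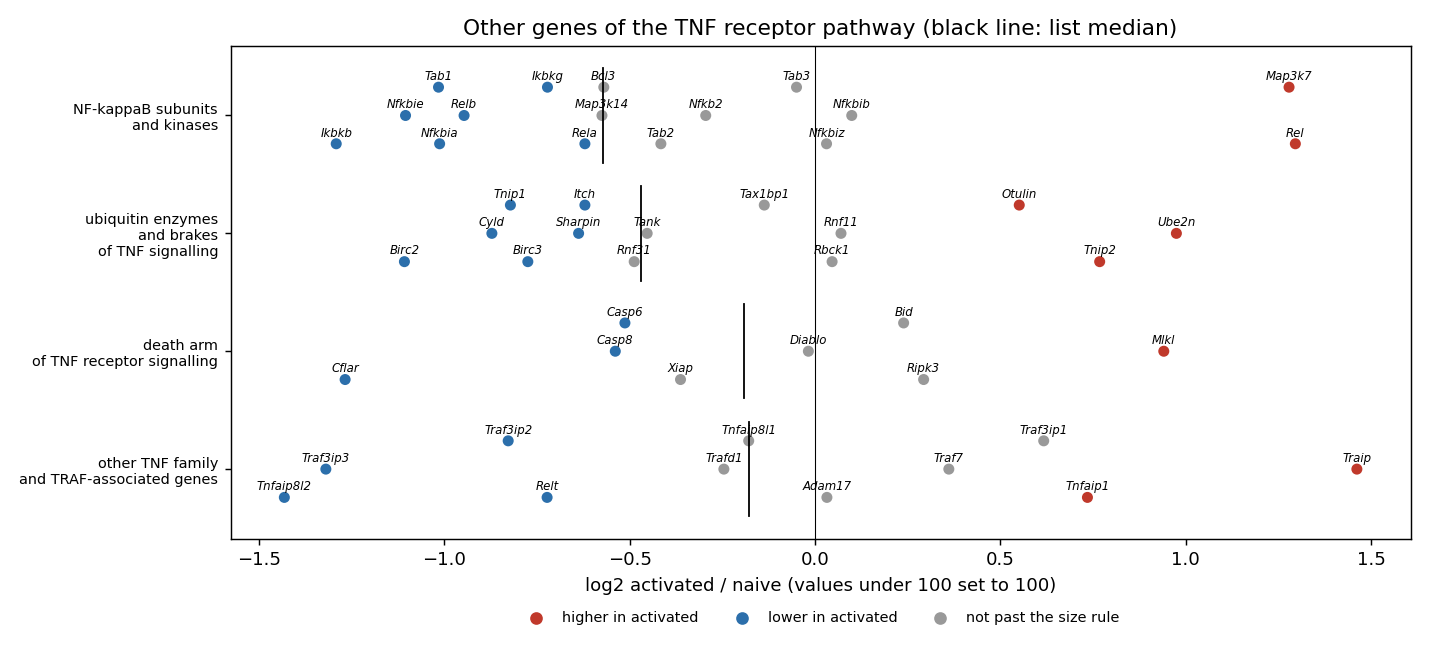
Log2 ratio of activated over naive for the measured genes of 4 pathway lists (rows; the vertical offset only separates labels), with genes called higher in red, lower in blue and not past the size rule in grey, and the list median as a black line. The medians lie at -0.57, -0.47, -0.19 and -0.18 from top to bottom.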

How the data were processed

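RNA of naive and of activated CD8+ T cells was measured on 1 array each. The authors deposited 1 intensity per probe set, made with dChip's PM/MM difference model and its invariant set normalization, per the series' design text; such values are imprecise near background. Present calls from GCOS 1.3, the version the design text names, were not used, so the size rule here (1.4-fold, difference above 100, floor of 100) is the study's without its calls and confidence bounds. Symbols came from the platform annotation, and all 72 member probe sets matched RefSeq by Entrez identifier. Of 45101 probe sets, 64 controls, 932 with several symbols and 9160 unnamed here were not assigned to a gene. Ratios and motif matches were computed with Python 3.11.15 and pandas 2.3.3. The calling rule was run on simulated data with small noise and with changes placed in bright genes only. That run does not cover calls near the floor. The members and lists were chosen with earlier results of these data known. Every member is named. Of the pathway lists, up to 4 genes called in each direction are named, taken by size of ratio. The marker genes named are among the 4 with the highest intensity in their list, and not all of these are named. The number of arrays limits the precision.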

Additional observations from a re-analysis of the deposited data

How the results depend on the processing

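No paired analysis was possible because each group has 1 array. With a fold minimum of 2, the higher counts were 2 ligand genes, 7 member probe sets and 1193 of all genes, and the lower counts were 1 receptor gene, 1 adaptor gene, 6 member probe sets and 904 of all genes. With a difference minimum of 200, 2 ligand genes and 7 member probe sets were higher and 1 ligand gene was lower. With a floor of 200, 2 ligand genes and 7 member probe sets were higher, and with both arrays required at 100 or more, 2 ligand genes and 5 member probe sets. The fold and difference minimums raise the threshold, and the other settings leave fewer probe sets measured. Other counts of ligand, receptor and adaptor genes, member probe sets and all genes stayed within 1.5 times under the 10 alternatives. Among members still measured, none past the size rule changed sign under any of them. Of the 16 calls, 9 were kept with a fold minimum of 2, 11 with a difference minimum of 200, 12 with a floor of 200, 13 with both arrays at 100 or more, and all 16 with a difference minimum of 50, a floor of 50, quantile normalization or without probe sets of the _s_at and _x_at types. Median scaling ended the call of Tnfsf9 (log2 ratio 0.42), a floor of 200 that of Traf5 (-0.48), and the median of a gene's probe sets that of Tnfaip3 (-0.79). Tnfsf9, Tnfsf11 and Tnfrsf13c were not measured at a floor of 200 or with both arrays required. The floor of 200 also gave log2 ratios of smaller size for Fasl (1.83), Lta (1.20), Fas (-0.76) and Tnfsf10 (-0.60). The floor of 50 gave ratios of larger size for Tnfsf11 (1.95), Tnfrsf13c (1.75), Tnfsf9 (1.49), Tnfrsf25 (-1.15), Cd40 (-1.06) and Tnfrsf23 (-0.53). The median over probe sets gave -1.27 for Traf1.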

Other observations

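Of 3 probe sets that the annotation gives to several genes including a member, 1 passed the size rule. The probe set shared by Tnfrsf22 and Tnfrsf23 was at 148 in activated cells, against 262 in naive cells (1.76-fold lower), whereas no probe set of either gene alone passed. The annotation does not say which transcript it reports. A probe set shared by Tnfsf12 and the read-through gene Tnfsfm13 was at 102 in activated and 144 in naive cells and did not pass, and one shared by Tnfsf12, Tnfsf13 and Tnfsfm13 lay under 100 on both arrays (15.8 and 29.0).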
